A study of Mus musculus with 24 samples.

Results

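The cytoplasmic ribosomal protein genes of mouse embryonic stem cells (ESCs) were followed through loss of Tet proteins and withdrawal of leukemia inhibitory factor (LIF). They were taken by symbol, as every gene named Rpl or Rps followed by a number plus Rplp0, Rplp1, Rplp2 and Rpsa, with the first line of the count table used where a symbol had several. The rule gave 77 genes of 22926 symbols, 46 for the large (60S) subunit and 31 for the small (40S) subunit, and it used no measured value. Polyadenylated RNA was sequenced from 24 libraries, each 1 clone, at day 0 with LIF (D0) and after 6 days without LIF (D6). All groups came from a 129/SVj-derived ESC line grown on gelatin without feeders, with eGFP knocked into the Pou5f1 locus (Oct4:IRES:eGFP), and 1 clone of it was the parent of the knockouts. The groups were WT (3 clones on each day), Tet1-/- (3), Tet2-/- (2), DKO, which is Tet1-/-:Tet2-/- (2), and TKO, which is Tet1-/-:Tet2-/-:Tet3-/- (2). The knockouts were made with CRISPR/Cas9 and each group is a set of clones of that line, so p-values measure the spread between clones, which may be partly technical.

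Ribosomal proteins join the ribosomal RNAs in the nucleolus to build both subunits, the 40S subunit decoding the mRNA and the 60S subunit joining amino acids. Their genes are housekeeping genes transcribed at high rates, and their mRNAs begin with a tract of pyrimidines that ties their translation to growth signals through mTOR. ESCs divide fast and make many ribosomes, and LIF holds them in the pluripotent state. Tet proteins oxidise 5-methylcytosine in DNA.

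Library totals were 21729346 to 37290208 counts at D0 and 18400463 to 34219640 at D6, and the 77 genes never had fewer than 694 counts in a library. The gRNAs leave small insertions or deletions that need not remove a transcript: Tet1 had 220.4 to 431 CPM (counts scaled to the library's size) in WT and 93.4 to 358 CPM in Tet1-/- at D0, Tet2 had 87.9 to 94.0 CPM in WT and 20.9 to 23.2 CPM in Tet2-/- at D0, and Tet3 had 5.05 to 7.94 CPM in WT and 2.84 to 4.43 CPM in TKO at D0. The Tet1 ranges overlapped, and the other pairs of D0 ranges given here did not. In TKO at D0 Tet1 ran from 41.7 to 568 CPM, and at D6 Tet2 had 15.9 to 16.6 CPM in Tet2-/- and 12.3 to 16.0 CPM in WT, which overlapped. Summed ESC markers were at 4985 to 6002 CPM in every D0 library. In some clones whole chromosomes stood apart. Relative to autosomes and to WT of the same day, the median of genes on chromosome 6 was 0.43 and 0.46 higher (log2, D0 and D6) in clone TKO_8.12, on chromosome 12 it was 0.40 and 0.45 higher and on chromosome 11 it was 0.39 and 0.16 higher in that clone, and on chromosome 8 it was 0.24 and 0.28 higher at D0 and 0.37 and 0.44 higher at D6 in the clones Tet2_KO_3.10 and Tet2_KO_3.11. For part of the ribosomal protein genes on these chromosomes, values with each library's chromosome medians taken out are given beside the result.

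All 77 genes passed the filter on low counts in every fit. Their median level over all 24 libraries was 588 CPM, against 17.7 CPM for all 15639 genes tested, and 23 of them were among the 100 most abundant genes. The highest were Rpl4 at 3754 CPM, Rps3 at 2502 CPM and Rpl8 at 2371 CPM. The lowest were Rps28 at 38.5 CPM, Rpl29 at 79.0 CPM and Rps29 at 92.5 CPM, so that mean levels spanned 97.5-fold. Divided by the length of 1 annotated coding transcript per gene, the level ran from 85.0 CPM per kb for Rps15a to 2776 CPM per kb for Rpl32. The median was 748 CPM per kb over 76 genes with a transcript in the annotation. The transcript used for Rps15a has 3721 bases, of which 393 are coding, so its place as the lowest rests on that choice. Ribosomal protein genes have many processed pseudogenes, and in 31 of 76 genes every 38-base window of the coding sequence, the length of 1 read, also occurred elsewhere in the genome. In 5 genes under 50% of windows did, among them Rpl8 (10.3%), Rps3 (13.7%), Rpl4 (29.5%) and Rpl22 (44.9%). Levels between genes are uncertain for that reason, and those per kb also for the transcript chosen. How much each level depends on the placing of such reads was not tested.

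The SD of log2 CPM between clones of the same genotype and day had a median of 0.11 over the 77 genes and of 0.15 over the 5338 other genes at or above the level of Rps28. The largest spreads were those of Rps27a, Rps29 and Rpl13. Rps27a, which encodes a ubiquitin fused to a 40S protein, had 989.7 and 648 CPM in clones TKO_8.12 and TKO_8.4 at D0 and 588, 671 and 649 CPM in the WT clones. Rps27a lies on chromosome 11, and the high clone was TKO_8.12.

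The 77 genes together took 5.98%, 6.11% and 6.04% of all counts in WT clones O4.1, O4.13 and O4.2 at D0, with 95% Wilson intervals no wider than 0.0206 percentage points in any library, which cover counting error only. After 6 days without LIF the same clones had 4.94%, 5.07% and 5.53%. The WT groups did not overlap, at 6.04% ± 0.064 (SD, n = 3) and 5.18% ± 0.309 (SD, n = 3). Every clone sequenced on both days had a lower share at D6. The group means went from 6.10% ± 0.321 to 5.115% ± 0.109 in Tet1-/- (SD, n = 3 on each day), from 6.12% ± 0.215 to 5.71% ± 0.479 in Tet2-/-, from 6.555% ± 0.174 to 5.29% ± 0.041 in DKO and from 6.64% ± 0.392 to 5.70% ± 0.244 in TKO (SD, n = 2 on each day). Clone Tet2_KO_3.11 was highest of the D6 libraries at 6.05% and lay within the range of the D0 libraries, 5.84% to 6.92%, as did clone TKO_8.4 at 5.88%. The Tet2-/- difference of -0.41 percentage points rested on single libraries, at -0.0709 without clone Tet2_KO_3.10 at D6 and -0.748 without clone Tet2_KO_3.11 at D6. With TMM-scaled library sizes the difference was -1.41 points in WT, against -0.865 unscaled, and -1.02 in Tet2-/-. The 40S genes had 41.0% ± 0.237 (SD, n = 2) of the summed CPM of the 77 genes in TKO at D0 and 39.8% ± 0.0886 (SD, n = 2) at D6. Their share was lower at D6 without overlap in Tet1-/- (41.4% to 41.8% and 40.5% to 40.9%), Tet2-/- and TKO, and the days overlapped in WT and DKO. Fewer cells of a type and less RNA per cell cannot be told apart in these bulk libraries.

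**Figure D1:**
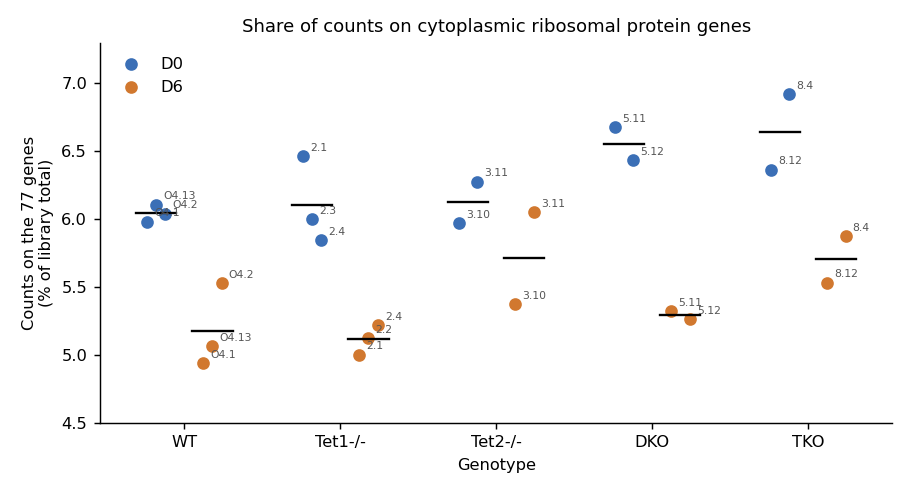
Percentage of each library's counts on the 77 cytoplasmic ribosomal protein genes (vertical axis, which starts at 4.5%) by genotype (horizontal axis), with D0 in blue and D6 in orange. Each point is 1 clone and each bar the group mean. In WT the mean falls from 6.04% to 5.18%, and the D6 library with the highest share is clone Tet2_KO_3.11 at 6.05%.

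Most ribosomal protein mRNAs were lower after 6 days without LIF in WT, Tet1-/-, DKO and TKO, but not in Tet2-/-. In WT, 54 of the 77 genes (70.1%) were lower at D6 than at D0 and none was higher (quasi-likelihood test of edgeR, p Benjamini-Hochberg adjusted), where 32.8% of all genes tested were lower. With a trend along transcript or coding length taken out, fewer were lower and some were higher, as given below. The median change of the 77 was -0.34 (log2), a fall by 21.0%, beside 0.015 for all genes tested. The changes were small: no gene passed the 2-fold limit that the study set. The markers of cell state moved at the same time: in WT 9 of 10 ESC markers were lower (median -2.29), and 6 of 6 mesoderm, 3 of 4 endoderm and 3 of 4 trophectoderm markers were higher (medians 7.18, 6.50 and 4.21), while 1 endoderm and 2 neuroectoderm markers were lower and 1 neuroectoderm marker was higher. Their part in the fall of the ribosomal protein genes was not tested. Both subunits took part, with 32 of 46 genes of the 60S subunit and 22 of 31 of the 40S subunit lower in WT, at medians of -0.35 and -0.34. Across all genotypes, 19 of the 77 genes (24.7%) were lower in each of the 12 D6 libraries than in every D0 library, where 11.6% of all genes were. None of the 77 was higher in each of the D6 libraries, where 13.2% of all genes were.

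Rps3, a 40S protein at the mRNA entry site, had 2959, 2952 and 2474 CPM in WT clones O4.1, O4.13 and O4.2 at D0 and 1826, 1962 and 2047 CPM at D6 (log2 -0.52, SE 0.088, adjusted p = 4.15e-05). In the knockouts Rps3 went from 3079, 3067 and 2742 to 1864, 1929.8 and 2034 CPM in Tet1-/-, from 3135 and 3259.8 to 2103 and 2503 CPM in Tet2-/-, from 2895 and 2864 to 2017 and 2025 CPM in DKO and from 2858 and 3181 to 2047 and 2217 CPM in TKO. Within each genotype the days did not overlap, while clone Tet2_KO_3.11 at D6 lay above WT clone O4.2 at D0. Rpl8, which sits at the peptidyl transferase centre, had 2823, 2847 and 2624 CPM in the WT clones at D0 and 1782.3, 1972 and 2021 CPM at D6, with no overlap (log2 -0.52, SE 0.086, adjusted p = 3.33e-05). Over the 5 genes with under 50% of shared windows the median change was -0.52 in WT, and -0.61, -0.44, -0.51 and -0.50 in the knockouts in the order Tet1-/-, Tet2-/-, DKO and TKO. Over the 50 genes with 90% or more it was -0.34, -0.42, -0.17, -0.55 and -0.39. Rpl8 and Rps3 were lower in all 5 genotypes. Rpl4 was lower in WT, Tet1-/- and DKO, at -0.060 in Tet2-/- and 0.077 in TKO (adjusted p = 0.616 and 0.477). Rpl22 was lower in DKO and TKO, and was at -0.16, -0.18 and 0.022 in WT, Tet1-/- and Tet2-/-.

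Among the largest falls in WT were those of Rpl13 (log2 -0.82, SE 0.16, adjusted p = 0.000174), Rplp1, Rps14, Rpl18 and Rpl31. Rpl18 had 1281, 1301 and 1058 CPM at D0 and 699.7, 752 and 787 CPM at D6 in the WT clones (log2 -0.70, SE 0.11, adjusted p = 2.58e-05), and Rpl31 had 257, 269.6 and 287 and 163, 165 and 184 CPM (log2 -0.67, SE 0.092, adjusted p = 4.54e-06). Neither gene's WT groups overlapped. With chromosome medians taken out the value of Rpl13, on chromosome 8, was -0.58 in WT and still passed. With the trend of the change along transcript length taken out of the counts, the WT calls of Rpl13 (-0.27), Rplp1 (-0.085), Rps14 (-0.13) and Rpl31 (-0.17) were lost, and that of Rpl18 (-0.51) was not. The annotated transcript used for the length of Rpl18 has 2987 bases, of which 567 are coding. With the coding length trend taken out, Rpl18 (-0.35), Rpl13 (-0.49), Rps14 (-0.31) and Rpl31 (-0.25) passed and Rplp1 (-0.27) did not. Rps14, a 40S protein whose loss in people causes the anaemia of 5q deletions, had 1549.6, 1666 and 1385 CPM at D0 and 846, 1039.8 and 942 CPM at D6 (log2 -0.70, SE 0.11, adjusted p = 2.98e-05). It was lower in each of the 5 genotypes, by 0.63 to 0.86 on the log2 scale.

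The stalk of the 60S subunit, which recruits the elongation factors, is built from Rplp0, Rplp1 and Rplp2, and all 3 genes were lower in all 5 genotypes. Rplp1 had 1257, 1397 and 1127 CPM in WT at D0 and 712, 775 and 829.9 CPM at D6, without overlap. Its changes were -0.71 in WT, and -0.79, -0.52, -0.64 and -0.59 in Tet1-/-, Tet2-/-, DKO and TKO (WT SE 0.14, adjusted p = 0.000167). The WT call was also lost with the coding length trend taken out (-0.27). Rplp0 had changes of -0.43 in WT, and -0.55, -0.28, -0.56 and -0.49 in Tet1-/-, Tet2-/-, DKO and TKO. Rplp2 had changes of -0.33 in WT, and -0.53, -0.41, -0.69 and -0.64 in Tet1-/-, Tet2-/-, DKO and TKO. Within the stalk the order of the 3 falls differed between genotypes, with Rplp1 the largest in WT, Tet1-/- and Tet2-/- and Rplp2 the largest in DKO and TKO; these differences in order were not tested.

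Rpl11 and Rpl5, which bind the 5S RNA and, when free, hold back Mdm2 and so stabilise p53, moved by different amounts. Rpl11 was lower in all 5 genotypes, at log2 -0.59 in WT, and -0.67, -0.37, -0.75 and -0.80 in Tet1-/-, Tet2-/-, DKO and TKO. Rpl5 passed the test in WT (log2 -0.24, SE 0.092, adjusted p = 0.0273) and Tet1-/- (log2 -0.29, SE 0.092, adjusted p = 0.011), while in Tet2-/-, DKO and TKO its values were -0.13, -0.27 and -0.19 (adjusted p = 0.379, 0.0525 and 0.172). Rpl24, at the bridge between the subunits, changed by -0.50 in WT, and -0.59, -0.24, -0.75 and -0.47 in Tet1-/-, Tet2-/-, DKO and TKO and missed the threshold in Tet2-/- (adjusted p = 0.0702).

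Among 40S genes, Rps19, the most often mutated gene in Diamond-Blackfan anaemia, was lower in all 5 genotypes, at log2 -0.35 in WT, and -0.51, -0.30, -0.45 and -0.50 in Tet1-/-, Tet2-/-, DKO and TKO. Rps6, the substrate of S6 kinase, changed by -0.47 in WT, and -0.49, -0.18, -0.47 and -0.25 in Tet1-/-, Tet2-/-, DKO and TKO and missed the threshold in Tet2-/- (adjusted p = 0.17). Rpsa, also known as the laminin receptor, changed by -0.45 in WT, and -0.50, -0.31, -0.41 and -0.21 in Tet1-/-, Tet2-/-, DKO and TKO and missed it in TKO (adjusted p = 0.16). For each of these 3 genes the falls were smaller than 2-fold in every genotype.

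Rps4x, Rpl10, Rpl36a and Rpl39 are the 4 X-linked genes. Rps4x changed by -0.18 in WT, and -0.27, 0.041, -0.31 and -0.096 in Tet1-/-, Tet2-/-, DKO and TKO and passed the test in WT, Tet1-/- and DKO. Rpl10, which joins the 60S subunit last, changed by -0.20 in WT, and -0.24, -0.058, -0.19 and -0.20 in Tet1-/-, Tet2-/-, DKO and TKO and passed in WT and Tet1-/- alone. Rpl36a changed by -0.17 in WT, and -0.12, 0.34, -0.54 and -0.51 in Tet1-/-, Tet2-/-, DKO and TKO and passed in DKO and TKO. Rpl39, at the exit tunnel, changed by -0.12 in WT, and -0.17, -0.031, -0.36 and -0.12 in Tet1-/-, Tet2-/-, DKO and TKO and passed in no genotype. Whether X-linked and autosomal members differ was not tested.

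Rpl39, Rpl23, Rpl23a and Rps27a were the 4 genes that passed in no genotype. Rpl23a, which docks the signal recognition particle at the exit tunnel, had 559.9, 588 and 715 CPM in the WT clones at D0 and 649, 649 and 835 CPM at D6, and changed by 0.20 in WT, and 0.25, 0.34, -0.29 and 0.16 in Tet1-/-, Tet2-/-, DKO and TKO. Rpl23 changed by 0.077 in WT, and 0.075, 0.20, -0.32 and -0.001 in Tet1-/-, Tet2-/-, DKO and TKO. Rps27a changed by -0.34 in WT, and -0.31, -0.31, -0.37 and -0.36 in Tet1-/-, Tet2-/-, DKO and TKO, and its spread between clones was among the 3 largest. Rpl38, needed for translation of Hox mRNAs in mouse embryos, passed in DKO only (log2 -0.49, SE 0.17, adjusted p = 0.0167), with -0.24 in WT (adjusted p = 0.123); the difference between these 2 genotypes was -0.25 (SE 0.21, adjusted p = 0.84).

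**Figure D2:**
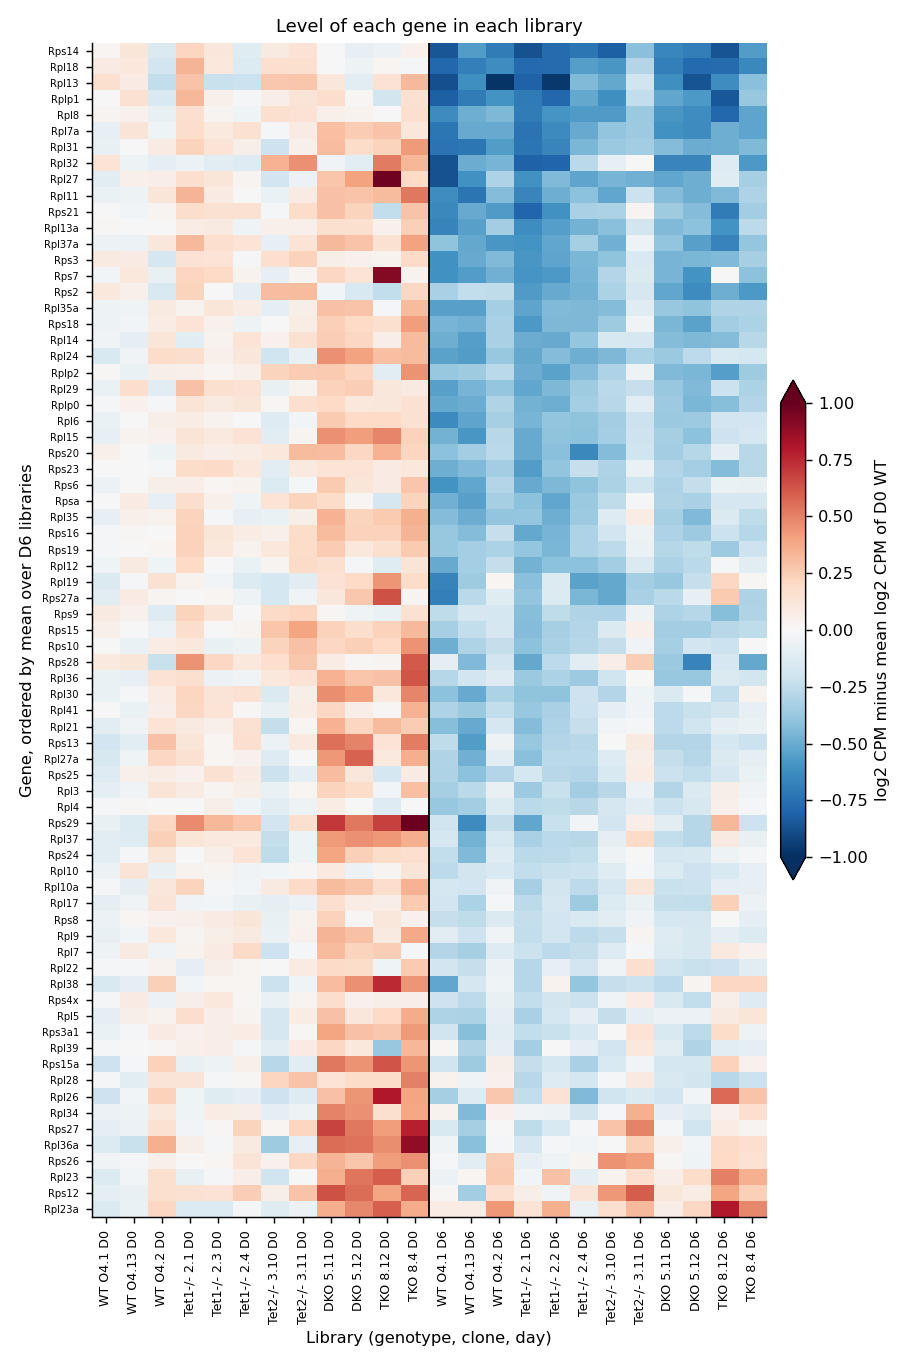
Level of 73 of the 77 genes (rows, ordered by their mean over the D6 libraries) in each of the 24 libraries (columns, D0 left of the line), as log2 CPM minus the mean log2 CPM of WT at D0, from blue (lower) to red (higher), with values beyond 1 drawn at the end of the scale. The median of the 77 genes lies between -0.065 and 0.31 in the D0 libraries and between -0.43 and -0.049 in the D6 libraries.

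The same comparison within each knockout gave 62 of 77 genes lower in Tet1-/- (80.5%, where 31.3% of all genes were), 70 in DKO (90.9%, where 28% were) and 55 in TKO (71.4%, where 25.2% were), with medians of -0.45, -0.55 and -0.45 and no gene higher. In Tet2-/- 23 genes were lower (29.9%, where 19.6% of all genes were) and 1 was higher, Rps26 (log2 0.31, SE 0.10, adjusted p = 0.0214), where 20.4% of all genes were higher. With chromosome medians taken out Rps26 was at 0.26 and no longer passed. The Tet2-/- median was -0.20. With either length trend taken out, fewer genes were lower in each knockout and some were higher, as given below. Fewer also passed in DKO and TKO with library totals for scaling. Of 10 ESC markers 9, 7, 9 and 8 were lower from D0 to D6 in Tet1-/-, Tet2-/-, DKO and TKO, and of 6 mesoderm markers 6, 1, 5 and 3 were higher. Of 4 endoderm markers 3, 1, 3 and 1 were higher. Their part in these falls was not tested. Scaled by library totals, which puts the median of all genes at 0.14 to 0.21 (log2) in the 5 comparisons of D6 with D0 and not near 0, 8 genes were lower and 9 higher in Tet2-/-. The share of all genes called under that scaling was not counted. In DKO all 77 genes had a value below 0. Without clone Tet2_KO_3.10 at D6, 5 genes passed in Tet2-/-, 9 without clone Tet2_KO_3.11 at D0, and 15 without clone Tet2_KO_3.10 at D0. In TKO 38 passed without clone TKO_8.4 at D0. The knockouts shared no library with WT in these comparisons.

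The genes with the largest falls differed between the lists of the genotypes. In Tet1-/- they included Rps14, Rpl18, Rplp1, Rpl7a and Rpl31, at -0.86 to -0.75, and in Tet2-/- they were Rps14, Rpl13, Rpl8, Rpl18, Rps2 and Rps20, at -0.72 to -0.53. In DKO they were Rpl7a, Rpl27, Rps13, Rps29, Rpl15 and Rpl27a, at -0.89 to -0.77, and in TKO they included Rpl27, Rpl11, Rpl37a, Rpl31 and Rpl32, at -0.86 to -0.77. Of these, with the transcript length trend taken out, Rplp1 in Tet1-/-, Rpl13 and Rps2 in Tet2-/-, Rpl27, Rps13, Rps29 and Rpl27a in DKO and all 5 in TKO no longer passed. Rps29, a zinc-binding 40S protein, had 138 and 122 CPM in the DKO clones at D0 and 78.4 and 69.6 CPM at D6 (log2 -0.81, SE 0.20, adjusted p = 0.00184), and 80.5, 77 and 97.7 CPM and 73.7, 54.8 and 71.8 CPM in the WT clones (log2 -0.35, SE 0.16, adjusted p = 0.061). With the transcript or coding length trend taken out, the DKO change of Rps29 was -0.020 or -0.17 and did not pass. The DKO clones stood above every WT clone at D0, and at D6 1 of them lay within the WT range and 1 just above it. Rpl27 had 230.8 and 251 CPM at D0 and 133 and 136 CPM at D6 in the DKO clones, and 176, 197 and 199.7 CPM and 104, 125 and 154 CPM in the WT clones. Counted over genotypes, 20 genes were lower in all 5, 25 in 4, 14 in 3, 8 in 2, 6 in 1 and 4 in none. The same count over all genes tested was not made, so these numbers are a description.

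**Figure D3:**
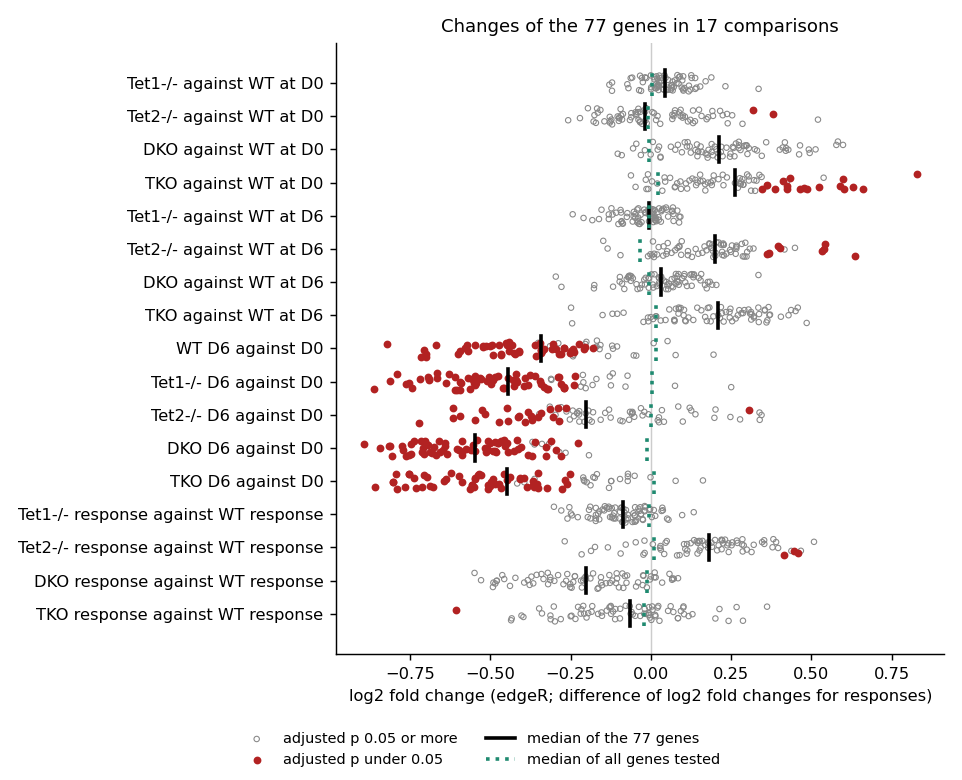
Changes of the 77 genes (points, filled red at adjusted p under 0.05) in the 17 comparisons (rows), as log2 fold change on the horizontal axis, with the median of the 77 genes as a black bar and that of all genes tested as a dotted green bar. The medians of the D6 against D0 rows lie to the left of 0, from -0.55 in DKO to -0.20 in Tet2-/-, where 18 genes are above 0. Among the knockouts at D0 the DKO and TKO medians lie to the right, at 0.21 and 0.26.

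The fall was shared by other short, abundant transcripts. The median transcript of the 77 genes is 774.5 bases long, and 55 of 76 are no longer than 1000 bases. Length here is that of 1 annotated coding transcript per gene, the first-numbered, which need not be the main one in these cells. The 300 other genes with transcripts up to 1000 bases and over 32 CPM had a median change from D0 to D6 of -0.54 in WT, and -0.57, -0.34, -0.64 and -0.65 in Tet1-/-, Tet2-/-, DKO and TKO, and 69.3%, 72.3%, 41.0%, 71.3% and 71.0% of them were lower. The 5304 longer ones had medians of -0.16, -0.17, -0.10, -0.19 and -0.17. With the trend of the change along transcript length taken out of the counts, 33 of the 77 genes were lower and 2 higher in WT, and in Tet1-/-, Tet2-/-, DKO and TKO 24 and 8, 18 and 4, 11 and 5, and 22 and 2 were. With the trend along coding length taken out, 11 were lower and 10 higher in WT, and in the same order of knockouts 9 and 19, 12 and 8, 0 and 10, and 10 and 7 were. The share of all genes called with either trend taken out was not counted, so these counts stand without it. The part of transcript length in the fall of the ribosomal protein genes was not tested.

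**Figure D4:**
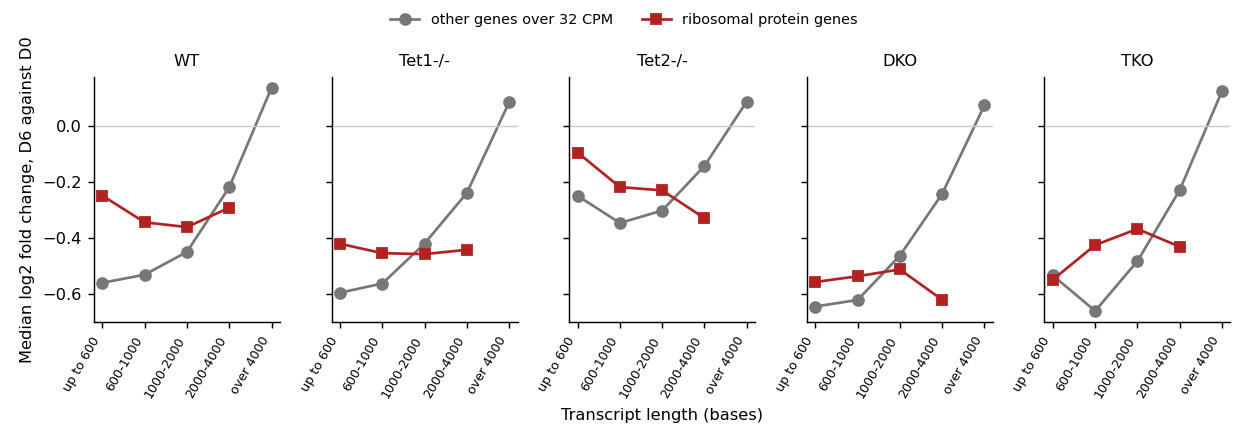
Median log2 fold change from D0 to D6 (vertical axis) of the ribosomal protein genes (red squares) and of other genes over 32 CPM (grey circles) by transcript length in bases (horizontal axis), 1 panel per genotype. In WT the other genes run from -0.56 at up to 600 bases to 0.14 over 4000 bases, and the ribosomal protein genes lie at -0.25 to -0.36 over the bins that hold any. The bin of 2000 to 4000 bases holds 4 of them, by the length of 1 annotated transcript per gene.

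The start sites of these genes were read from RefSeq promoters (GRCm38.p6), which covered 57 of the 77 genes with 67 start sites. A run of 8 or more C or T reaching within 5 bases of the start was present at 22 of 67 (32.8%), against 9.38% of all 32851 promoters. The letters CTTTC or CTTTT, on the gene's strand within 10 bases of the start, were at 14 of 67 (20.9%) against 4.38%, and CCGGAAG, the core bound by Ets factors, was on either strand at 25 of 67 (37.3%) against 8.86%. TATAAA from 40 to 20 bases before the start was at 0 of 67, against 1.91%. The windows of 20 bases on each side of the start follow for genes that the results turn on, with the longest run of C and T at the start in capitals, 5′ to 3′ on the gene's strand, and base 21 is the first transcribed base. They are Rpl7a (chr2:26910787-26910826, plus strand), Rpl18 (chr7:45718051-45718090, plus strand) and Rplp0 (chr5:115559447-115559486, plus strand), which fell in all 5 genotypes, Rpl38 (chr11:114668560-114668599, plus strand), which was higher in TKO at D0, Rps27 (chr3:90213629-90213668, minus strand) and Rps12 (chr10:23787190-23787229, minus strand), which were higher in TKO at D0 and in Tet2-/- at D6, and Rpl28 (chr7:4792945-4792984, plus strand), whose change over 6 days differed between TKO and WT.
Rpl7a: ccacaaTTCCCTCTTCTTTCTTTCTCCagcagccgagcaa
Rpl18: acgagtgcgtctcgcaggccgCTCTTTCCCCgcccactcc
Rplp0: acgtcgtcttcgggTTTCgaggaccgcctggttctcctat
Rpl38: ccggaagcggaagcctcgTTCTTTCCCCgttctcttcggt
Rps27: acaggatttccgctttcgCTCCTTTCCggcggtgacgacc
Rps12: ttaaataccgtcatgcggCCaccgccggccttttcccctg
Rpl28: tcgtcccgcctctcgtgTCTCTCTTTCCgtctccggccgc
Runs of 20 or more stood beside WT changes from D0 to D6 of -0.57 for Rpl7a, -0.30 for Rpl27a and -0.11 for Rpl34 at 1 of its starts (log2). Runs of 4 or fewer stood beside, for example, -0.43 for Rplp0 and -0.59 for Rpl11, and no order is read from them. A match of letters is a description of the window and not a site.

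With LIF present, part of the ribosomal protein genes were higher in TKO than in WT. In TKO at D0, 17 of the 77 genes were higher than in WT (22.1%, where 4.44% of all genes tested were) and none was lower, with a median change of 0.26 (1.20-fold). They were 10 genes of the 60S subunit and 7 of the 40S subunit, and included Rpl11, Rpl15, Rpl23a, Rpl26, Rpl27, Rpl32, Rpl36, Rpl36a, Rpl37, Rpl38, Rps3a1, Rps12, Rps15a, Rps26, Rps27 and Rps29. Rps29 had 136 and 167 CPM in clones TKO_8.12 and TKO_8.4 and 80.5, 77 and 97.7 CPM in the WT clones (log2 0.83, SE 0.14, adjusted p = 0.00632). Rps27, a zinc-finger 40S protein, had 535 and 685 CPM in TKO and 374, 384 and 445 CPM in WT (log2 0.60, SE 0.13, adjusted p = 0.0164). For both genes the TKO clones lay above every WT, Tet1-/- and Tet2-/- clone and overlapped the DKO clones, which had 138 and 122 CPM of Rps29 and 637 and 575 CPM of Rps27.

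The other 4 of the largest TKO differences at D0 were Rpl36a (log2 0.66, SE 0.16, adjusted p = 0.0301), Rpl27 (log2 0.63, SE 0.17, adjusted p = 0.0361), Rpl26 (log2 0.60, SE 0.14, adjusted p = 0.0204) and Rpl38 (log2 0.59, SE 0.13, adjusted p = 0.0172). Rpl27 had 373 and 219 CPM in clones TKO_8.12 and TKO_8.4 and 176, 197 and 199.7 CPM in WT, so clone TKO_8.12 stood well above the other. Rpl26, whose protein also binds p53 mRNA, had 1071 and 805 CPM in TKO and 532, 601 and 720.4 CPM in WT. Rpl26, Rpl27 and Rpl38 lie on chromosome 11, where the 7 ribosomal protein genes had a median of 0.64 in clone TKO_8.12 (log2 against WT) and those elsewhere had 0.14, and Rps29 lies on chromosome 12. With the median of each library's chromosome taken out, 25 genes were higher in TKO at D0, Rpl26, Rpl27 and Rpl38 were each at 0.43 and Rps29 at 0.68, and all 4 still passed. Rpl23a and Rpl32 lie on chromosomes 11 and 6, and no such value is given for them in TKO at D0. Of 10 ESC markers 1 was higher and 2 were lower in TKO at D0, of 4 neuroectoderm markers 1 was higher, of 2 trophectoderm markers tested 1 was higher and 1 lower, and no mesoderm or endoderm marker passed (medians 0.53 and 1.69). The part of these differences in the ribosomal protein levels was not tested. With the transcript length trend taken out 8 passed, and Rps27 (0.46) and Rpl36a (0.54) no longer did. The share of all genes called was not counted with medians or trends taken out or a library left out. The count rested on single libraries in both directions, at 2 genes without WT clone O4.13, 6 without WT clone O4.1 and 34 without clone TKO_8.12.

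The DKO clones at D0 leaned the same way without passing the adjusted threshold. Of the 77 genes 0 passed in DKO (where 0.0484% of all genes did in either direction), while 35 were higher at an unadjusted p under 0.05 (45.5%, where 6.52% of all genes were) and 13 passed with DESeq2. The median change was 0.21 (1.16-fold). Rps27 had 637 and 575 CPM in the DKO clones, above the WT clones, at log2 0.58 (SE 0.13, adjusted p = 0.0844). Without either TKO clone in the fit, which also lends its spread, 20 genes passed in DKO. Across the 77 genes, those at lower levels had the larger differences, with a Spearman correlation between the change and mean CPM of -0.58 in DKO and -0.52 in TKO; genes share libraries, depth and short transcripts, and this is a description. The DKO and TKO values share the WT libraries. For DESeq2 and for the fits without a TKO clone the share of all genes called was not counted.

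In Tet1-/- at D0 0 genes passed (where 0.0138% of all genes did), 1 was higher at an unadjusted p under 0.05 (where 12.6% of all genes passed in either direction), DESeq2 gave 0, and the median was 0.043. In Tet2-/- at D0 2 genes were higher (2.60%, where 5.02% of all genes were), Rpl32 (log2 0.38, SE 0.093, adjusted p = 0.0278) and Rps15 (log2 0.32, SE 0.087, adjusted p = 0.0405), and the median was -0.017. Rpl32 had 2013 and 2172 CPM in clones Tet2_KO_3.10 and Tet2_KO_3.11 and 1738, 1525 and 1487 CPM in the WT clones. Rpl32 lies on chromosome 6, whose genes were 0.16 and 0.20 higher in these clones, and with chromosome medians taken out its difference was 0.17 and did not pass. With the title number within the day as a block, neither Rpl32 nor Rps15 passed. Neither gene passed without either Tet2-/- clone, WT clone O4.2 or WT clone O4.13, and 7 genes passed without either TKO clone.

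At D6, 8 of the 77 genes were higher in Tet2-/- than in WT (10.4%) and none was lower, where 12.9% of all genes tested were higher, so the share of these genes called was near that of all genes. The median was 0.20, beside -0.033 for all genes. They included Rps12 (log2 0.54, SE 0.14, adjusted p = 0.0182), Rpl32 (log2 0.54, SE 0.18, adjusted p = 0.0492), Rps27 (log2 0.53, SE 0.12, adjusted p = 0.0127), Rpl35 (log2 0.40, SE 0.094, adjusted p = 0.0139) and Rps26 (log2 0.36, SE 0.11, adjusted p = 0.0311). Rps12, a 40S protein, had 946 and 1066 CPM in Tet2-/- and 707, 551 and 787 CPM in WT, without overlap. With chromosome medians taken out 14 of the 77 genes passed, but 2 of the 8 no longer did, among them Rps26 at 0.31, and Rpl32 was at 0.32 and still passed. The share of all genes called in that fit was not counted. With the transcript length trend taken out Rps12 (0.35), Rpl32 (0.35) and Rps26 (0.16) no longer passed, and with that of coding length Rpl32 (0.42) and Rps26 (0.23) did not.

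The Tet2-/- clones also differed from WT in their cell state at D6. Of 10 ESC markers 2 were higher and 1 lower in Tet2-/- than in WT (median 1.10), and their sum stood at 2305 to 2522 CPM against 861 to 1801 CPM. Of 6 mesoderm markers 6 were lower, with sums of 16.0 to 25.4 CPM and 177 to 631 CPM. Of 4 endoderm and 4 trophectoderm markers 3 each were lower (medians -4.30 and -3.15), and 3 of 4 neuroectoderm markers were higher (median 2.61). The part of this difference in the ribosomal protein levels was not tested. No gene passed in Tet2-/- at D6 without either Tet2-/- clone, 4 passed without WT clone O4.1 or O4.13, and 21 passed without WT clone O4.2.

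The other knockouts had no called gene at D6. In Tet1-/- 0 of 77 passed (where 0% of all genes did), 2 were lower at an unadjusted p under 0.05 (where 12.6% of all genes passed in either direction) and DESeq2 gave 0. In DKO 0 passed (where 0% did), 2 passed unadjusted (where 14.6% did) and DESeq2 gave 1. In TKO 0 passed (where 0% did), 31 were higher unadjusted (40.3%, where 11.6% of all genes were) and 2 lower, and DESeq2 gave 9, 7 of them higher. The TKO median was 0.21, and 17 genes passed in TKO without WT clone O4.2. For DESeq2 and for that fit the share of all genes called was not counted. No marker of cell state passed in TKO at D6, where the medians were 0.60 for ESC, -3.13 for mesoderm and -3.08 for endoderm markers, and their part was not tested.

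The change over 6 days itself was then compared between each knockout and WT. It was less negative in Tet2-/- for 3 of the 77 genes (3.90%, where 7.87% of all genes were higher), and the median difference was 0.18. Rps25, a 40S protein used by viral internal ribosome entry sites, had 569.6, 644 and 656 CPM in WT at D0 and 503, 468 and 507 CPM at D6, and 537 and 580.2 CPM and 559 and 656 CPM in Tet2-/-. Each WT clone was lower at D6 and neither Tet2-/- clone was (WT -0.34, adjusted p = 0.0025, and Tet2-/- 0.12, adjusted p = 0.395). The test of the difference passed (difference of log2 changes 0.46, SE 0.14, adjusted p = 0.0333). Rpl35, at the exit tunnel, had 267, 292 and 290.4 CPM and 209.9, 201 and 216 CPM in WT and 270.5 and 295 CPM and 259 and 297 CPM in Tet2-/- (0.41, SE 0.14, adjusted p = 0.0462). Rpl21 had 331, 347 and 391 CPM and 265, 251 and 317 CPM in WT and 301 and 361 CPM and 349 and 354 CPM in Tet2-/- (0.45, SE 0.15, adjusted p = 0.0487). For all 3 genes the Tet2-/- clones lay above every WT clone at D6. With the clone as a replicate block across days 6 genes passed, and with chromosome medians taken out 6 did. With either length trend taken out the 3 no longer passed, and without that of transcript length 2 other genes were more negative in Tet2-/-. Of the markers, the change was higher in Tet2-/- for 2 of 10 ESC and 2 of 4 neuroectoderm markers and lower for 3 of 6 mesoderm, 1 of 4 endoderm and 1 of 4 trophectoderm markers, and their part was not tested. None passed without clone Tet2_KO_3.10 at D0, clone Tet2_KO_3.11 at D6, WT clone O4.2 or O4.13 at D0, or WT clone O4.1 or O4.13 at D6, and 13 passed without WT clone O4.2 at D6.

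In TKO the change differed from that in WT for 1 gene, Rpl28, which was more negative (1 of 77, where 3.17% of all genes were). Rpl28, a 60S protein, had 383, 355 and 419.9 CPM in WT at D0 and 394, 375 and 396 CPM at D6, and 437 and 545 CPM and 317 and 331 CPM in TKO. The WT groups overlapped and the TKO groups did not, with the TKO clones above WT at D0 and below it at D6 (difference of log2 changes -0.61, SE 0.13, adjusted p = 0.0156). In Tet1-/- 0 genes passed (where 0% of all genes did), 0 at an unadjusted p under 0.05 (where 7.67% of all genes passed), and DESeq2 gave 0. In DKO 0 passed (where 0% did), 19 were more negative unadjusted (24.7%, where 4.46% of all genes were), DESeq2 gave 0, and the median was -0.20. Of the markers, the change was lower in TKO than in WT for 2 of 4 endoderm, 1 of 6 mesoderm and 1 of 4 trophectoderm markers, and none of these or of the ESC markers passed in Tet1-/- or DKO; their part was not tested. These comparisons share the WT libraries, so their values are not independent.

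**Figure D5:**
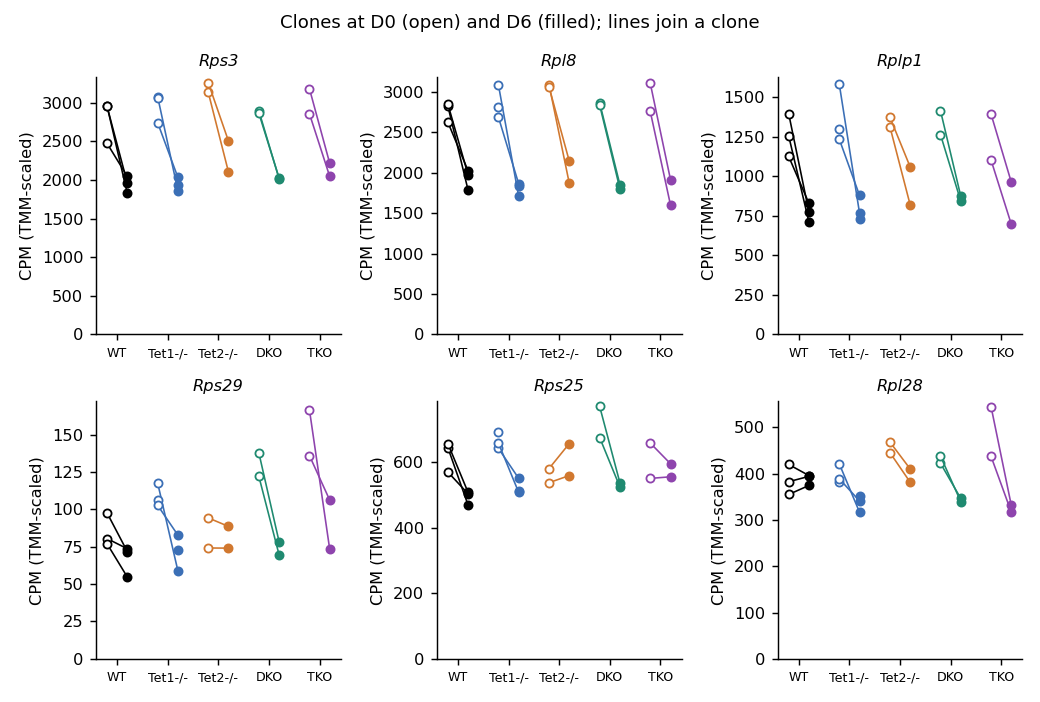
CPM (vertical axis, from 0) of Rps3, Rpl8, Rplp1, Rps29, Rps25 and Rpl28 in each clone at D0 (open circles) and D6 (filled circles) by genotype (horizontal axis), with a line joining the libraries of a clone. Rps3, Rpl8 and Rplp1 fall in every genotype, the Rps25 lines of Tet2-/- do not, and the Rpl28 lines of TKO go from 437 and 545 CPM to 317 and 331 CPM.

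Of the genes of ribosome assembly, RNA polymerase I, mitochondrial ribosomes, initiation and elongation, more passed as lower than as higher at D6 in each genotype, and part of each list did not pass. Of 42 ribosome assembly genes, 38 were lower in WT, and 38, 14, 37 and 31 in Tet1-/-, Tet2-/-, DKO and TKO, with medians of -0.88 in WT and -0.29 in Tet2-/-. Ncl, the nucleolar protein nucleolin, was at -0.72 in WT and -0.047 in Tet2-/-. Of 18 genes of RNA polymerase I and its factors, which make ribosomal RNA, 14, 14, 6, 14 and 13 were lower in the same order and 1 was higher in Tet2-/-, Polr1b at -1.19 in WT among them. Of 76 mitochondrial ribosomal protein genes, 65, 66, 43, 66 and 66 were lower, with a WT median of -0.66. Of 29 initiation factor genes 20, 19, 14, 20 and 15 were lower and 1, 1, 2, 1 and 1 higher, and of 8 elongation factor genes 5, 5, 3, 6 and 6. Beside these, 32.8%, 31.3%, 19.6%, 28% and 25.2% of all genes were lower.

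A list of 18 further genes was chosen for a pyrimidine tract at the start of the transcript, which was not looked for in them here. Of these, 8 are also in the assembly, initiation or elongation lists (such as Eef1a1 and Npm1). In WT 4 of the 18 were lower and 3 higher, with a median of 0.016. Of 5 genes of the Myc family, 3 were lower in WT and 1 was higher, Mycl at 1.94, with Mycn, the form prominent in ESCs, at -0.46. Of 10 ribosomal fusion genes and paralogues, 10, 9, 7, 9 and 6 were lower. Rpl39l, a paralogue of Rpl39, went from a mean of 113 to 9.59 CPM in WT (-3.55). Rpl10l, a paralogue of Rpl10, went from 162 to 4.32 CPM in WT (-5.21). The WT values of Rpl39 and Rpl10 themselves were -0.12 and -0.20.

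In Tet2-/- at D6, 23 of 42 assembly genes were higher than in WT and none was lower, with a median of 0.42, where 12.9% of all genes were higher. Of 18 RNA polymerase I genes 7 were higher, and of 76 mitochondrial ribosomal protein genes 12, a share near that of all genes. Of 29 initiation factor genes 2 were higher and 1 lower, and of 8 elongation factor genes 2 were higher. Of 10 fusion genes and paralogues 3 were higher and 1 lower, and of the 18 genes listed for the pyrimidine tract 1 was higher and 1 lower (median -0.075). The log2 change over 6 days was higher in Tet2-/- than in WT for 16 of 42 assembly genes (median 0.53), 8 of 18 RNA polymerase I genes, 11 of 76 mitochondrial ribosomal protein genes, 4 of 29 initiation factor genes, 1 of 8 elongation factor genes, 2 of 10 fusion genes and paralogues and 0 of the 18 genes listed for the pyrimidine tract, where 7.87% of all genes were. It was lower for 1 initiation factor gene and 1 gene listed for the pyrimidine tract.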

How the data were processed

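Polyadenylated RNA of 24 clone libraries was sequenced as paired 38-base reads and, per the labels and the study's methods, aligned by the authors to mm9 with STAR 2.5.1. The authors deposited whole-number counts per RefSeq transcript line, 1 table per day, without normalization. The sources name different counting programs and give no strand setting. Spike-ins were added to the RNA, but no spike-in lines were used here. The members and lists were chosen with earlier results of these data known.

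The first line per symbol was used. Counts were scaled by TMM (edgeR 4.0.16, R 4.3.3), filtered with filterByExpr (minimum count 10) and tested with the quasi-likelihood test, Benjamini-Hochberg adjusted over all genes, at 0.05. The fits held 14456 genes at D0, 15435 at D6 and 15639 over all libraries, the last for changes across days. The fits were tested on simulated data. CPM are TMM-scaled in the fit of all libraries. Named were all called members where 12 or fewer passed, otherwise the 6 largest changes in each direction, the 3 highest and lowest levels and spreads, and genes fixed by role. A protein's role is textbook background.

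Deviations of the same clone at D0 and D6 had r = 0.0668 to 0.273, where both clones of a genotype with 2 clones have the same r by construction. Libraries of the same title number at D0 had r = -0.116 to 0.386, and whether they share a batch was not tested. The same clone pairs libraries across days, but title numbers were not the same clone on both days in part of the WT, Tet1-/- and DKO libraries, and clones Tet1_KO_2.3 and Tet1_KO_2.2 were each sequenced on 1 day. A DKO label at D6 was read as clone DKO_5.12. Alternatives were other scalings, DESeq2 1.42.0, no filter, other lines per symbol, each library left out, blocks and 1 joint fit, and, chosen after seeing the data, removal of length trends and chromosome medians. Shared windows were counted in the NCBIM37 genome. The values of some genes are not reported here.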

Additional observations from a re-analysis of the deposited data

Results flagged for a closer look

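In 4 genes the change from D0 to D6 differed between a knockout and WT by the test of the difference itself (quasi-likelihood test of edgeR, p Benjamini-Hochberg adjusted). In Tet2-/- the difference of log2 changes was 0.46 for Rps25, 0.45 for Rpl21 and 0.41 for Rpl35, each from a lower level at D6 in all 3 WT clones and a value near that of D0 in the Tet2-/- clones. In TKO it was -0.61 for Rpl28, whose WT clones had nearly the same level on both days. The share of these genes called was below that of all genes tested in both comparisons, at 3 of 77 beside 7.87% and 1 of 77 beside 3.17%.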

How the results depend on the processing

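Counts of the 77 genes called, of either direction, moved as follows, and the cause was not tested unless named. The share of all genes called was counted in the main fits alone, so it does not stand beside these counts. DESeq2 called 4 in Tet2-/-, 13 in DKO at D0, 18 in Tet2-/-, 1 in DKO and 9 in TKO at D6, and 5 in the Tet2-/- and 4 in the TKO change against that of WT. DESeq2 size factors gave 13 in Tet2-/- at D6 and 1 in the Tet2-/- change. Library totals gave 1 in Tet2-/- at D0, 17 (9 higher), 45 and 36 from D0 to D6 in Tet2-/-, DKO and TKO, and 2 in the TKO change. Without a filter 4 passed in DKO at D0 and 1 in the Tet2-/- change. Summing lines gave 13 in Tet2-/- at D6 and 1 in the Tet2-/- change. All libraries in 1 fit gave 1 in Tet2-/- at D0, and 19 in Tet2-/- and 6 in TKO at D6.

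The replicate block of the title number within the day, which marks no shared clone (at D0 r = -0.116 to 0.386 with 14 of 20 pairs over 0.1, at D6 -0.422 to 0.299 with 7 of 20), gave 0 in Tet2-/- at D0. The clone as a replicate block across days gave 6 in the Tet2-/- change, and it moved no other count by over 1.5 times. Without the transcript length trend 8 passed in TKO at D0, 4 in Tet2-/- at D6, 35, 32, 22, 16 and 24 from D0 to D6 (WT, Tet1-/-, Tet2-/-, DKO, TKO), and 2, both lower, in the Tet2-/- change. Without the coding length trend 4 passed in Tet2-/- at D0 and 5 at D6, 21, 28, 20, 10 and 17 from D0 to D6, 1, lower, in the Tet2-/- change and 2 in the TKO change. Without chromosome medians 1 passed in Tet2-/- at D0, 14 at D6, 6 in the Tet2-/- change and 2 in the TKO change.

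Leaving out each library gave 0 to 7 (Tet2-/-), 0 to 20 (DKO) and 2 to 34 (TKO) at D0, and 0 to 21 (Tet2-/-) and 0 to 17 (TKO) at D6. From D0 to D6 it gave 43 to 60 (WT), 55 to 64 (Tet1-/-), 5 to 29 (Tet2-/-, with 15 and 9 without its D0 clones), 55 to 72 (DKO) and 38 to 56 (TKO), and for the change against WT 0 to 13 (Tet2-/-) and 1 to 3 (TKO). The share of counts at D6 minus D0, scaled by TMM, was -1.41, -1.77, -1.02, -2.12 and -1.71 percentage points, and -1.05 in DKO with lines summed. The unscaled share change ranged from -1.04 to -0.746 (WT), -1.11 to -0.806 (Tet1-/-), -0.748 to -0.0709 (Tet2-/-), -1.38 to -1.14 (DKO) and -1.22 to -0.661 (TKO) when a library was left out. The libraries left out include those of neither compared group, which bear on a call only through the shared spread, filter and scaling. No gene named in a comparison changed direction in these settings. With a library left out 931 of their calls stayed and 101 did not, under the other planned settings 406 stayed and 18 did not, and of 51 calls 27 were lost without the transcript length trend, 15 without the coding length trend and 4 without chromosome medians.

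With 2 or 3 clones a group, a gene without a call is not shown to be equal between groups. The lowest count of a member in a library was 694. Reads of pseudogenes and of overlapping or antisense transcripts were not separated.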
